A study of Rattus norvegicus with 3 samples.

Results

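The genes described here encode the enzymes that remove superoxide and peroxides, 10 in number, of the 18425 genes in the deposited rat table. They were taken by gene symbol as *Sod1*, *Sod2*, *Sod3*, *Cat*, *Gpx1*, *Gpx3*, *Gpx4*, *Prdx1*, *Prdx2* and *Prdx6*. The list was chosen with earlier results of these data known, so it was not drawn up blind to them. All 10 were found in the table and all 10 had whole-number read counts in every library. RNA was sequenced from whole P4 retinas of wild-type Sprague Dawley rats after an intravitreal injection at P1. The Buffer library came from eyes given 1 μl of citrate buffer (pH 4.5), the vehicle of streptozotocin. The Saline library came from eyes given 1 μl of saline, and the STZ library from eyes given 10 μg of streptozotocin (STZ), a glucosamine-nitrosourea that alkylates DNA. There was 1 library per condition, and how many retinas or animals went into each is not given in the sources used here. Treatment, animal, dissection and library therefore cannot be told apart, and every difference below compares libraries, without a p-value or a replicate check. For intravitreal injection at P1, the paper describes STZ in right eyes and citrate buffer in left eyes of the same animals. Whether the sequenced retinas were paired in this way is not stated.

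Superoxide, which leaks from the mitochondrial respiratory chain and is made by phagocyte oxidases, is converted to hydrogen peroxide by the superoxide dismutases. Catalase, the glutathione peroxidases and the peroxiredoxins then reduce hydrogen peroxide, and some of them also reduce lipid peroxides. The glutathione peroxidases GPX1, GPX3 and GPX4 carry selenocysteine in the active site and take electrons from glutathione, while most peroxiredoxins use a reactive cysteine and are recharged by thioredoxin. The retina is rich in mitochondria and in polyunsaturated membrane lipids, which makes these enzymes of interest in retinal injury.

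RefSeq promoter windows, running from 250 bases before to 50 after a start site on the build GRCr8, were matched by symbol for 8 of the 10 genes, and *Sod3* and *Prdx6* had no entry. The windows are shown because several of these genes are textbook targets of Nrf2, which binds the antioxidant response element with the core TGACNNNGC. The windows were searched on both strands for that core, for TGANTCA (the AP-1 site), for GGGCGG (the GC box), for TATAAA and for CCAAT. The core TGACNNNGC was found in *Prdx1* and *Sod2*, 2 of 8 genes, and in 12.1% of all 33469 windows. The GC box was found in 7 of 8, all but *Cat*, and in 33.1% of all windows. A gene was counted if any of its windows matched, and the 8 genes have 10 windows. The percentages are per window, so the 2 kinds of share are not in the same unit. The sequences of *Prdx1* and *Sod2*, which hold the core, and of *Gpx1*, which had the highest STZ to Buffer fold of the 10 genes, are printed below over the 140 bases that end just before the start site, with every match of a searched motif in capitals.
Gpx1, chr8:117905322-117905461, plus strand: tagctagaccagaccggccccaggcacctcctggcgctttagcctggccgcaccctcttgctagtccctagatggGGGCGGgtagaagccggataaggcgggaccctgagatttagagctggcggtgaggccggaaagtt
Prdx1, chr5:135383766-135383905, plus strand: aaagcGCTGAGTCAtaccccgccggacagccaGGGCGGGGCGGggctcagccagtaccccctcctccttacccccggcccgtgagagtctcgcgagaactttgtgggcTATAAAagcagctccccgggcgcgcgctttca
Sod2, chr1:50050169-50050308, minus strand: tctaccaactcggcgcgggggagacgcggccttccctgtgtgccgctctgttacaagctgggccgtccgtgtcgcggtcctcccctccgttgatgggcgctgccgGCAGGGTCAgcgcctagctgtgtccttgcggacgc
In *Prdx1* the core lies on the opposite strand with its first base at position -135 from the start, and an AP-1 match at -133 lies inside it. In *Sod2* the core is also on the opposite strand, at -35. The *Gpx1* window held 1 match of the 5 motifs, a GC box at -65. A match is a run of letters and not a measured binding site.

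The estimated read counts summed to between 21977846 and 22031241 per library after rounding to whole numbers, so depth was nearly equal. Where 3 values stand without names, they are in the order Buffer, Saline, STZ. A level is given as FPKM (fragments per kilobase of transcript per 1000000), which allows genes to be compared with each other. A fold is (FPKM + 1)/(FPKM + 1) between 2 libraries, as in the methods of the study, and is called past a threshold below 0.65 or above the study's upper threshold, which is the reciprocal of 0.65 rounded to 2 decimals. A read-share ratio is a gene's share of the total reads in a library over its share in another, with an exact Clopper-Pearson 95% interval. The interval covers counting error only. Among the 10586 genes with a mean count of 200 or more, it excluded 1 for 32.8% in Saline against Buffer, so an interval that excludes 1 is frequent even between the 2 control libraries. All 14 retina genes were detected, and in STZ against Buffer their folds ran from 0.784 to 1.62, with 7 intervals above 1 and 7 below. The most abundant by reads were the transcription factor genes *Crx*, with FPKM of 383.7, 349.0 and 408.8, *Otx2*, with 192.3, 177.0 and 168.0, and *Pax6*, with 264.4, 271.3 and 268.8. In the Saline library, 8 of 12 pigment and ciliary epithelium markers and 13 of 20 lens genes were past the upper threshold against Buffer. Of all genes, 1.43% were past either threshold in that comparison. In the STZ library, 15 of 20 lens genes were past the upper threshold against Buffer, where 2.25% of all genes were. The lens genes summed to 443 reads in Buffer, 1039 in Saline and 5189 under STZ.

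**Figure D1:**
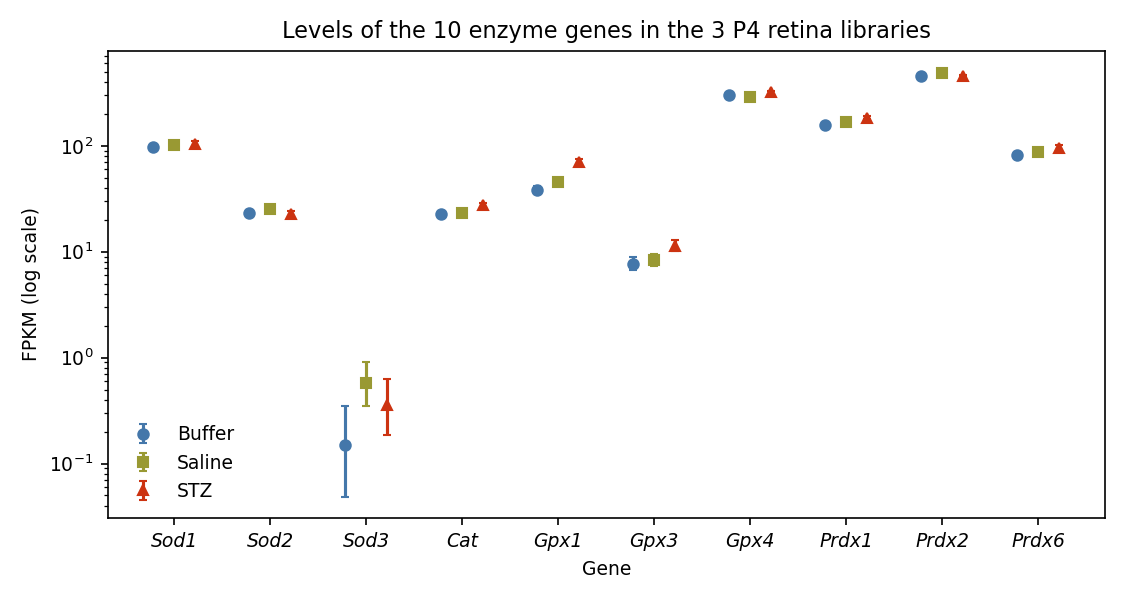
FPKM of each of the 10 enzyme genes (x axis) on a log scale (y axis) in the Buffer (circles), Saline (squares) and STZ (triangles) libraries, 1 library each, with bars for the exact Poisson 95% interval of the read count. *Prdx2* and *Gpx4* lie at the top and *Sod3* at the bottom in every library, and the STZ triangle of *Gpx1*, at 70.2, lies clear of 38.4 in Buffer and 45.6 in Saline.

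The 10 genes spanned about 3 orders of magnitude in level, and their order was almost the same in the 3 libraries, as the plot of levels by library shows. *Prdx2*, *Gpx4* and *Prdx1* stood at the top in each library, in that order, followed by *Sod1*, *Prdx6* and *Gpx1*. *Gpx3* was the ninth and *Sod3* the tenth in all 3. *Sod2* and *Cat* were neighbours whose order changed. In Buffer the FPKM of *Sod2* (23.1) and *Cat* (22.7) had overlapping counting intervals, and likewise in Saline (25.2 and 23.2). In STZ *Cat* (27.4, interval 26.0 to 28.8) lay above *Sod2* (22.6, interval 21.2 to 24.1). The FPKM of *Cat* divided by that of *Sod2* came to 0.983 in Buffer, 0.923 in Saline and 1.21 under STZ. In the STZ library alone, the intervals of *Sod1* (103.4) and *Prdx6* (96.1) overlapped as well. All other neighbours had intervals that did not overlap.

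In terms of summed FPKM, the peroxiredoxins made up most of the level of the 10 genes, with 58.4% in Buffer, 59.9% in Saline and 57.1% under STZ. The 3 glutathione peroxidases held 29.4%, 27.9% and 31.0%. The 3 superoxide dismutases held 10.2%, 10.2% and 9.78%, and catalase 1.92%, 1.88% and 2.12%. The 10 genes together reached 1186 FPKM in Buffer, 1237 in Saline and 1292 under STZ.

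The comparison of STZ with Buffer, the main comparison of the study, asks how the injected drug changed the retinal transcriptome relative to its vehicle. Of the 10 genes, 1 (*Gpx1*) was past the upper threshold and 0 were below the lower, where 2.25% of all 18425 genes were past the upper and 1.04% below the lower. The median log2 fold of the 10 genes was 0.23, against 0.03 over the 14885 genes with a mean count of 10 or more. The fold was above 1 for 9 of the 10 genes, against 56% of those 14885 genes. The counting interval of the ratio lay above 1 for 6 genes (*Gpx1*, *Gpx3*, *Cat*, *Prdx1*, *Prdx6* and *Gpx4*) of the 9 with a mean count of 200 or more, against 28.8% of all genes with that mean, and below 1 for 0, against 23%. With TMM scaling of the library totals, an alternative chosen after the data were seen, *Gpx4* no longer passed and 5 genes did. The FPKM was highest in STZ of the 3 libraries for 7 of the 10 genes, against 44.1% of genes with a mean count of 10 or more.

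Against Saline, the second control, 0 of the 10 genes were past the upper threshold and 0 below the lower, where 2.04% and 1.75% of all genes were. The fold was above 1 for 7 of the 10, against 52.1%. The median log2 fold was 0.13, against 0.01 over all genes with a mean count of 10 or more. Intervals lay above 1 for 6 genes, against 30.6% of genes with a mean count of 200 or more, and below 1 for 2 genes (*Sod2* and *Prdx2*), against 27.5%. Between the controls, Saline against Buffer, 0 of the 10 genes passed either threshold, against 1.43% of all genes, and the median log2 fold was 0.10, against 0.02 over all genes. The intervals of *Gpx1*, *Prdx1* and *Prdx2* lay above 1 in that comparison, 3 of the 9 genes with at least 200 reads on average, against 17.6% of such genes, and 0 lay below 1, against 15.1%. With TMM scaling the interval of *Prdx1* no longer excluded 1 and that of *Gpx4* lay below 1. The fold was above 1 for 9 of the 10 genes, against 54.7%. The comparisons share libraries, so the Saline and Buffer values enter more than 1 of these counts.

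**Figure D2:**
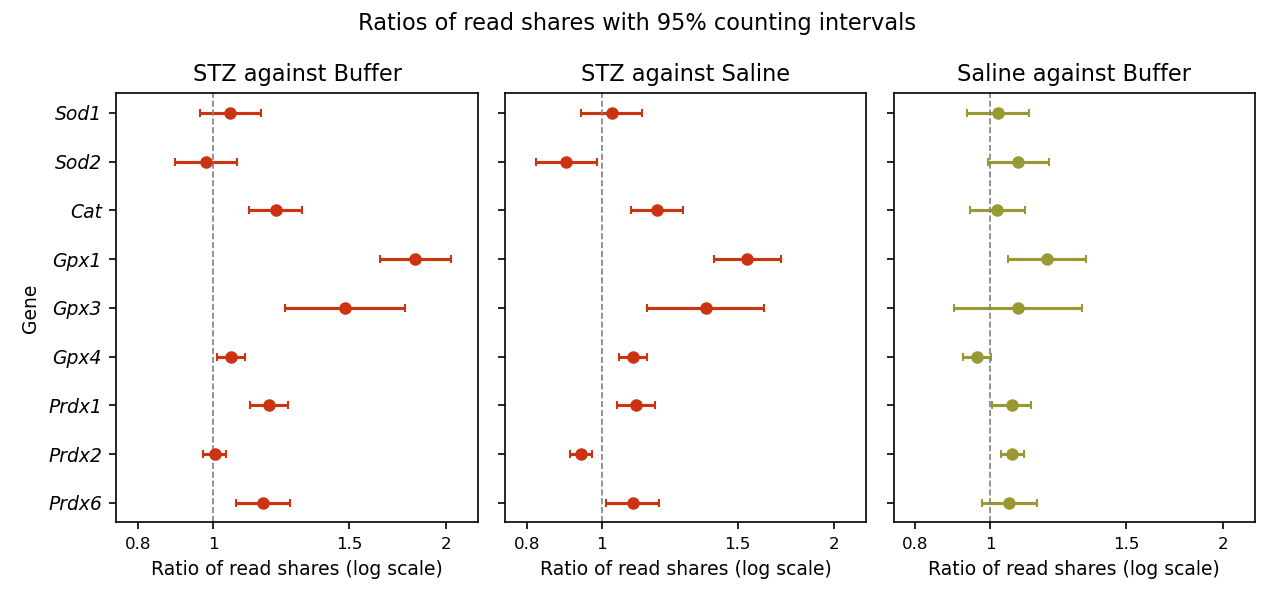
Ratio of read shares (x axis, log scale) for 9 of the 10 genes (y axis) in the panels STZ against Buffer, STZ against Saline and (right) Saline against Buffer. Points are ratios of 1 library to another, bars are exact 95% counting intervals and the dashed line marks 1. *Sod3*, with 5 to 19 reads, is left out because its interval is too wide for the axis. *Gpx1* lies farthest to the right in both STZ comparisons, at 1.83 and 1.543, and also lies above 1 in Saline against Buffer, at 1.18.

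Among the glutathione peroxidases, *Gpx1* encodes the cytosolic and mitochondrial enzyme that reduces hydrogen peroxide. It had 550 reads in Buffer, 651 in Saline and 1007 in STZ, or 38.4, 45.6 and 70.2 FPKM. By reads and by FPKM the STZ library was the highest, and Saline lay above Buffer. The fold in STZ was 1.81 against Buffer, past the threshold, and 1.53 against Saline, just short of it. The read-share ratio was 1.83 (95% counting interval 1.65 to 2.03) against Buffer and 1.543 (1.40 to 1.71) against Saline. Saline against Buffer gave a ratio of 1.18 (1.06 to 1.33), so the control libraries also differed by more than counting error. Among genes with a mean count of 10 or more, the fold of *Gpx1* stood at percentile 98.5 for STZ against Buffer, 97.5 for STZ against Saline and 92.3 for the controls.

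*Gpx3* encodes the secreted enzyme of plasma and extracellular fluid. It had 211 reads in Buffer, 229 in Saline and 313 in STZ, or 7.73, 8.41 and 11.4 FPKM. STZ was again the highest, and the 2 controls lay within counting error of each other, with a ratio of 1.09 (0.897 to 1.32). The fold was 1.42 against Buffer and 1.32 against Saline, both short of the threshold. The ratios were 1.48 (1.24 to 1.77) and 1.36 (1.15 to 1.62).

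*Gpx4* encodes the enzyme that reduces lipid hydroperoxides within membranes and restrains ferroptosis. It was among the most abundant transcripts of the retina, at percentile 98.9 of all genes by FPKM in Buffer, with 4317 reads in Buffer, 4148 in Saline and 4564 under STZ. The fold was 1.05 against Buffer and 1.09 against Saline. The ratio against Buffer was 1.06 with an interval of 1.01 to 1.10, and this value moved with scaling as given above. The level of *Gpx1* relative to *Gpx4*, which does not depend on scaling between libraries, came to 0.127 in Buffer, 0.156 in Saline and 0.22 under STZ by FPKM. The reference annotation names 4 pseudogenes of *Gpx4*. According to its methods, the study discarded reads with several genomic locations, and if so the level of *Gpx4* may be understated in all 3 libraries. Some deposited counts are fractional, so how such reads entered the counts is not certain.

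Catalase, encoded by *Cat*, breaks down hydrogen peroxide in peroxisomes without a reducing partner. *Cat* had 1154 reads in Buffer, 1178 in Saline and 1393 under STZ. The 2 controls were close together, with a ratio of 1.02 (0.941 to 1.11), and STZ lay above both. The fold was 1.20 against Buffer and 1.17 against Saline, short of the threshold, with ratios of 1.20 (1.11 to 1.30) and 1.18 (1.09 to 1.28).

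Of the peroxiredoxins, PRDX1 and PRDX2 are cytosolic enzymes recharged by thioredoxin, and PRDX6 has a single reactive cysteine and draws on glutathione. *Prdx1* had 2246 reads in Buffer, 2394 in Saline and 2660 under STZ, with folds of 1.18 against Buffer and 1.10 against Saline. *Prdx6* had 1138, 1204 and 1324 reads, with folds of 1.16 and 1.09. For both genes the order was Buffer, Saline, STZ from low to high. The ratio in STZ against Buffer was 1.18 (1.117 to 1.251) for *Prdx1* and 1.16 (1.07 to 1.26) for *Prdx6*. Saline against Buffer gave 1.07 (1.01 to 1.13) for *Prdx1* and 1.06 (0.975 to 1.15) for *Prdx6*. RefSeq names 7 pseudogenes of *Prdx1* and 3 of *Prdx6*, so the uncertainty about such reads given for *Gpx4* applies to them too.

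*Prdx2*, the highest of the 10 genes, had a different order. It had 6477 reads in Buffer, 6916 in Saline and 6519 in STZ, so that STZ lay beside Buffer and Saline above both. The STZ ratio was 1.00 (0.971 to 1.04) against Buffer and 0.940 (0.909 to 0.973) against Saline, and the controls gave 1.07 (1.03 to 1.11) for Saline over Buffer. Relative to *Prdx1*, the FPKM of *Prdx2* was 2.91 times as high in Buffer and in Saline and 2.47 times as high in STZ. *Prdx2* is known as an abundant protein of red blood cells. The reads of 11 measured red blood cell genes came to 1367 in Buffer, 1922 in Saline and 1008 under STZ, also highest in Saline. Of the 4 globin genes with a mean count of 10 or more, 2 were past a threshold in STZ against Buffer. The shares over all genes were 2.25% past the upper and 1.04% below the lower. *Hba2* had 50.27, 73.95 and 32.25 FPKM and a fold of 0.649, and *Hbb-b1* had 3.89, 13.5 and 7.98 FPKM and a fold of 1.84. The 2 with the most reads, *Hba1* and *Hbb*, had folds of 0.717 and 0.751. The ratio interval lay below 1 for 3 of the 4 and above 1 for *Hbb-b1* alone, which had the fewest reads. All 4 were highest in Saline. Globin genes have near-identical copies, and the estimated counts of these 4 are fractional, so their single values are uncertain. The markers *Alas2* and *Slc4a1* had at most 14 reads in any library. The part of blood in the *Prdx2* values was not tested.

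The 2 well-counted superoxide dismutases did not differ from Buffer beyond counting error in STZ. *Sod1* encodes the cytosolic copper-zinc enzyme and had 905 reads in Buffer, 925 in Saline and 955 in STZ. These values are within counting error of each other, with a ratio of 1.05 (0.961 to 1.15) in STZ against Buffer and 1.03 (0.940 to 1.13) against Saline. *Sod2* encodes the manganese enzyme of the mitochondrial matrix and had 932, 1013 and 914 reads, lowest in STZ. Its ratio was 0.979 (0.893 to 1.07) against Buffer and 0.900 (0.822 to 0.985) against Saline. Changes against Buffer within these intervals were not detectable at this depth. RefSeq names 1 pseudogene of *Sod2*. The *Sod2* promoter printed above holds the TGACNNNGC core, as does that of *Prdx1*, whose fold was 1.18 in STZ against Buffer. The core was found in 12.1% of all windows, and its part in these values was not tested.

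*Sod3* encodes the extracellular copper-zinc enzyme and was hardly detected, with 5 reads in Buffer, 19 in Saline and 12 in STZ, or 0.15, 0.58 and 0.36 FPKM. Saline was the highest and Buffer the lowest. The ratio in STZ against Buffer was 2.40 with an interval of 0.786 to 8.68, so no difference was detectable at this depth. Saline against Buffer gave 3.80 (1.37 to 13.03), while the fold with the pseudocount of 1 was 1.37. The distance between ratio and fold comes from the pseudocount, which is larger than any of the 3 FPKM values of this gene.

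**Figure D3:**
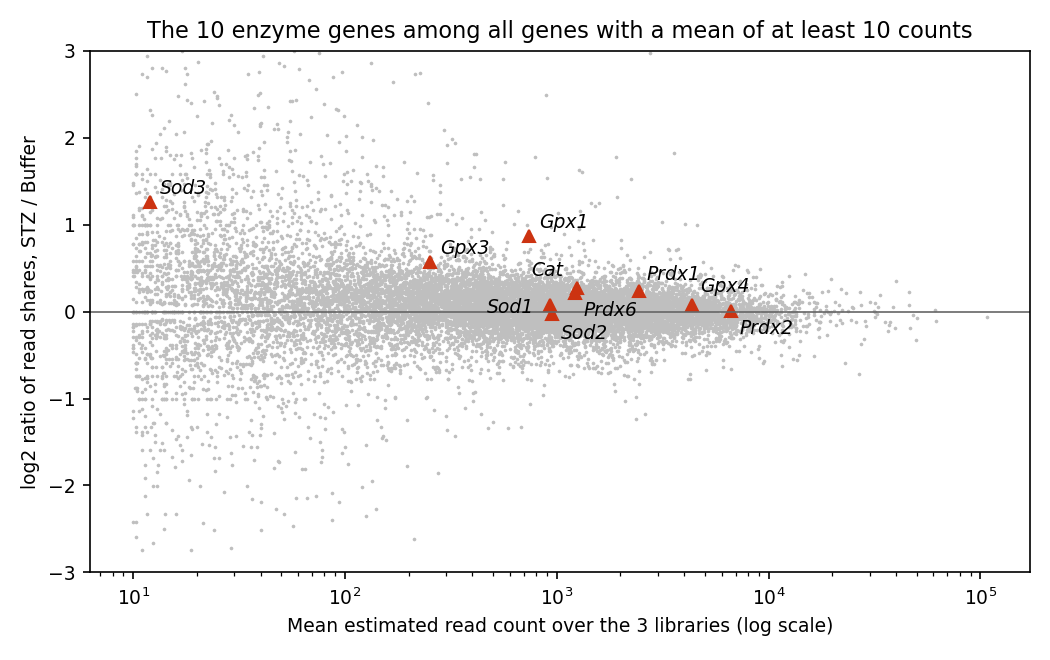
Log2 ratio of read shares in STZ against Buffer (y axis, 1 library each) against the mean estimated read count over the 3 libraries (x axis, log scale), for all genes with a mean count of 10 or more (gray points) and the 10 enzyme genes (red triangles). *Gpx1* and *Gpx3* lie above most genes, at 0.87 and 0.57, and the other well-counted enzyme genes lie between -0.03 and 0.27. The axis ends at 3 and leaves out 89 genes.

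The remaining members of the same families, with *Ccs*, which encodes the chaperone that loads copper into SOD1, were measured for 8 of 9 listed genes, and 6 had a mean count of 10 or more. Of these, 0 were past either threshold in any comparison. Their median log2 fold was 0.18 in STZ against Buffer and 0.03 against Saline. *Ccs* had 719 reads under STZ against 559 in Buffer and 546 in Saline, with folds of 1.27 against Buffer and 1.30 against Saline. *Prdx5*, a peroxiredoxin of mitochondria, peroxisomes and cytosol, had 790, 777 and 958 reads and a fold of 1.21 against Buffer. *Prdx3*, the mitochondrial matrix peroxiredoxin, had 1143, 1188 and 1285 reads and a fold of 1.12. *Prdx4*, the peroxiredoxin of the endoplasmic reticulum, went the other way, with 1551, 1604 and 1396 reads, and a ratio of 0.898 (0.835 to 0.966) against Buffer and 0.868 (0.808 to 0.933) against Saline.

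The enzymes depend on supplies of reduced thioredoxin and glutathione. Of 14 genes of the thioredoxin cycle, 2 were past the upper threshold in STZ against Buffer and 0 below the lower. The shares over all genes were 2.25% and 1.04%. The median log2 fold was 0.07, and the interval of the ratio lay above 1 for 4 genes and below 1 for 2. The 2 genes past the upper threshold were *Sesn2*, which encodes sestrin 2, with 451, 512 and 785 reads and an STZ to Buffer fold of 1.66, and *Glrx*, which encodes glutaredoxin, with 149, 172 and 247 reads and a fold of 1.57. Against Saline their folds were 1.48 and 1.38, short of the threshold. The most abundant gene of the list, *Sesn3*, was lowest in STZ, with 18139, 18871 and 14820 reads and a fold of 0.790 against Buffer. *Txnip* had 2360, 2401 and 2614 reads and a fold of 1.10 against Buffer. *Txnrd1*, which encodes the cytosolic thioredoxin reductase, had a fold of 1.05. Of 12 glutathione supply genes with a mean count of 10 or more, 0 were past a threshold in STZ against Buffer, with folds from 0.981 to 1.15 and a median log2 fold of 0.09. *Gsr*, which encodes glutathione reductase, had folds of 1.12 and 1.02 against the 2 controls.

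Since GPX1, GPX3 and GPX4 are selenoproteins, the genes of selenium handling were taken as a further list. Of all genes, 2.25% were past the upper threshold in STZ against Buffer and 2.04% against Saline. Of 10 measured genes of this list, 1 was past it against both controls. This was *Sepp1*, which encodes the selenium carrier selenoprotein P, with 220 reads in Buffer, 299 in Saline and 645 in STZ, and folds of 2.63 and 2.02. The list's median log2 fold was 0.01 in STZ against Buffer. Of 14 genes of the Nrf2 axis, 1 (*Hmox1*) was past the upper threshold in STZ against Buffer, again beside 2.25% of all genes. The median log2 fold of this axis was 0.08. *Hmox1* had 233 reads in Buffer, 216 in Saline and 509 in STZ, with folds of 2.05 against Buffer and 2.19 against Saline. *Nfe2l2*, which encodes Nrf2 itself, had 607, 619 and 651 reads and a fold of 1.06.

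Genes that produce superoxide gave a median log2 fold of 0.50 in STZ against Buffer over 9 genes with a mean count of 10 or more. The upper threshold was passed by 2.25% of all genes and by 3 of these 9. These 3 encode parts or partners of the phagocyte NADPH oxidase, and all had low counts in the controls. *Ncf1* was estimated at 75.5, 65.3 and 501.0 reads in Buffer, Saline and STZ, *Rac2* had 38, 43 and 192, and *Cybb* had 16, 31 and 56. The estimated counts of *Ncf1* are fractional. Against Saline, *Ncf1* and *Rac2* were past the upper threshold, 2 of the 9, where 2.04% of all genes were.

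Markers of microglia and macrophages, which express the phagocyte oxidase, moved with these values. Of all genes, 2.25% were past the upper threshold in STZ against Buffer and 2.04% against Saline. Of 15 marker genes, 13 were past it against Buffer and 13 against Saline, and 0 were below the lower. Their summed level came to 75.1 FPKM in Buffer, 97.2 in Saline and 239 under STZ, and 0 of the 15 were at 0 reads in any library. Of the 15, 12 were higher in Saline than in Buffer, against 54.7% of genes with a mean count of 10 or more. The summed level of the lens genes had the same order of libraries, at 27.3, 72.1 and 436 FPKM. By reads, the enzyme genes *Gpx1*, *Gpx3*, *Cat*, *Prdx1*, *Prdx6* and *Sod1* rank Buffer, Saline, STZ from low to high, and so does *Sepp1*. For *Gpx3*, *Cat*, *Prdx6* and *Sod1* the Saline to Buffer interval held 1, and *Sod1* was within counting error in every comparison. *Gpx4*, *Prdx2*, *Sod2* and *Sod3* do not have this order. The share of all genes with this order was not computed, but FPKM was highest in STZ for 44.1% of genes with a mean count of 10 or more. In whole-retina RNA, more cells of a type and more RNA per cell cannot be told apart. On stained sections, the paper reports more IBA1-positive microglia in STZ-treated retinas, beginning at P4. The part of microglia or lens in the values of *Gpx1* and the other enzyme genes was not tested. Of 11 genes of proliferating progenitors, 1 was below the lower threshold in STZ against Buffer, the cyclin gene *Ccnd1* with a fold of 0.611, and the median log2 fold was -0.36. The fold was above 1 for 2 of them, *Ccnb1* (1.30) and *Cdk1* (1.07), against 56% of genes with a mean count of 10 or more. The share of all genes below the lower threshold was 1.04%.

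**Figure D4:**
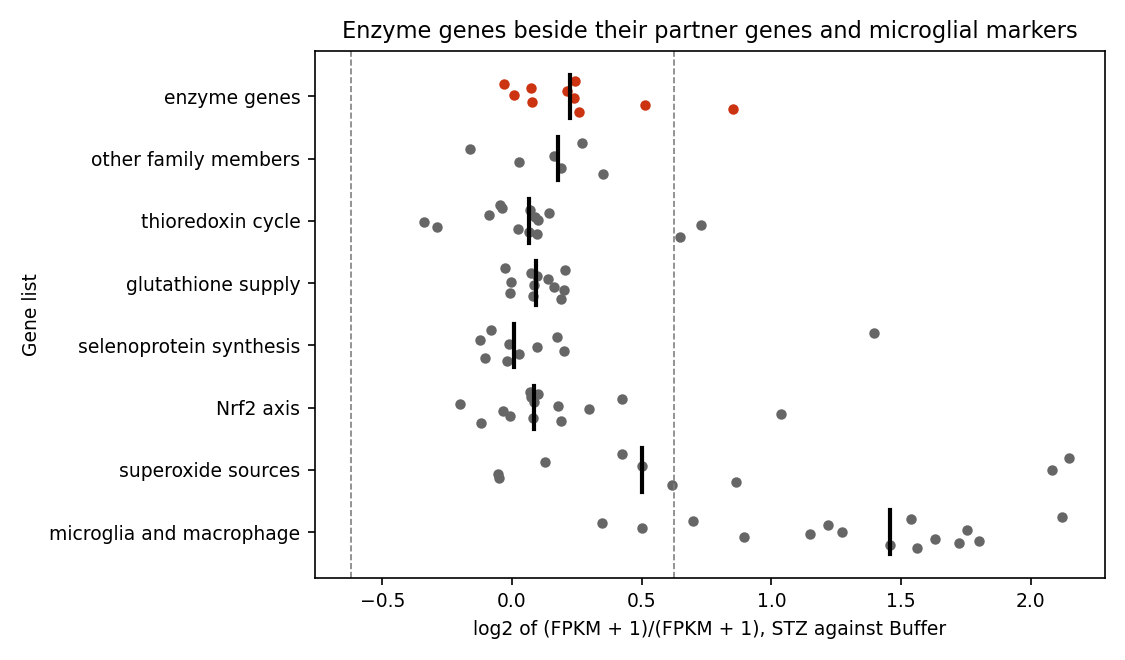
Log2 fold in STZ against Buffer (x axis) for genes with a mean count of 10 or more in the list of 10 enzyme genes (red) and in 7 lists of partner or marker genes (gray), 1 row per list on the y axis. Each point is a gene, black bars are medians and dashed lines are the 2 thresholds of the fold. The median was 0.23 for the enzyme genes, 0.50 for superoxide sources and 1.46 for microglia and macrophage markers.

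*Gpx1* had the largest ratio in STZ against Buffer of the 9 well-counted enzyme genes, and the genes nearest to it were looked up by the pair of log2 ratios, STZ and Saline each against Buffer, among 8195 genes with a mean count of 500 or more. The 3 nearest were *Ptp4a3* with a distance of 0.04, *Grn* with 0.06 and *Sesn2* with 0.09 on the log2 scale, over 3 libraries. *Grn*, which encodes the lysosomal protein progranulin, had 955, 1155 and 1684 reads, and *Ptp4a3*, which encodes a phosphatase, had 1121, 1316 and 1993. There were 5 genes within a distance of 0.1. With 3 libraries, a likeness of this kind describes these libraries only.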

How the data were processed

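Rat retinal RNA was sequenced in 3 libraries, 1 per condition. According to the methods of the study, reads were trimmed, mapped with TopHat2 allowing up to 2 mismatches, and reads with several genomic locations were discarded; the submitters' processing notes name the build rn6, and the annotation and the tool versions are not given in the sources used here. The authors deposited FPKM, TPM and an estimated count per gene. Of the estimated counts, 12.9% to 13.2% per library are fractional, and they were rounded. The series table and the 3 library tables did not differ (largest difference 0).

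Folds, ratios and exact intervals were computed with Python 3.11.15, numpy 2.4.6, pandas 2.3.3 and scipy 1.17.1, and figures with matplotlib 3.10.9. Scaling factors came from edgeR 4.0.16 (0.985, 1.00 and 1.01 for Buffer, Saline and STZ) and DESeq2 1.42.0 in R 4.3.3; no count model was fitted, since there are no replicates. The calculations were tested on simulated data. The 10 genes and 13 further lists were chosen with earlier results of these data known. A single gene of the further lists is not reported here and was left out of its list's counts. Genes of a list were named by passing the fold and then by abundance, 4 at most, besides *Nfe2l2*, *Hmox1* and *Ccs*, while *Txnrd1*, *Gsr*, *Alas2* and *Slc4a1* were named for their role, and *Ccnb1* and *Cdk1* for their direction, after their values were seen. Names came from the files. RefSeq's GRCr8 tables were used for pseudogenes and promoters only. Reads were not tagged with molecular identifiers, so intervals leave out the error of amplification.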

Additional observations from a re-analysis of the deposited data

How the results depend on the processing

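No paired analysis was possible because each condition has 1 library, and for the same reason no replicate was left out. The number of enzyme genes past a threshold in STZ against Buffer, 1 as reported, was 2 with a pseudocount of 0.1 (*Sod3* joined *Gpx1*), 0 with thresholds of 2 and 0.5, and 6 when an interval that excludes 1 replaced the fold. In STZ against Saline it was 0 and became 8 with the interval. In Saline against Buffer it was 0 and became 1 with a pseudocount of 0.1 or with the deposited TPM (*Sod3* in each case) and 4 with the interval. It was the same under the other alternatives tried. The median log2 fold of the 10 genes ranged from 0.18 to 0.23 in STZ against Buffer, from 0.11 to 0.13 in STZ against Saline and from 0.07 to 0.10 in Saline against Buffer. Of 150 alternative values of single folds, all were within the counting interval's width of the reported value, and the fold of *Prdx2* in STZ against Buffer fell on the other side of 1 in 2 of them. Depth limits *Sod3* most, with 5 to 19 reads.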

Other observations

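*Slc7a11*, which encodes the cystine transporter that feeds glutathione synthesis, stood apart in the Saline library, with 278 reads in Buffer, 496 in Saline and 281 in STZ. Its fold in Saline against Buffer was 1.58, past the threshold, and this gene was chosen after its values were seen. In that library the pigment and ciliary epithelium markers summed to 414 FPKM, against 262 in Buffer and 228 in STZ, and 1 of the 12 was at 0 reads in Buffer. Most of each sum came from *Rlbp1*, with 155.1, 145.8 and 121.8 FPKM, and *Aldh1a1*, with 46.6, 167.7 and 46.5. *Rlbp1* was thus not highest in Saline. The part of the pigment and ciliary epithelium in the value of *Slc7a11* was not tested. The photoreceptor gene *Rcvrn*, which encodes recoverin, had 1775 reads under STZ against 1087 in Buffer and 1184 in Saline, and its fold against Buffer was 1.62. The endothelium and mural cell genes had a median log2 fold of -0.58 in STZ against Buffer, with 6 of 13 below 0.65. Of 14 retina genes, *Rcvrn* alone passed a threshold in that comparison. The shares over all genes were 2.25% past the upper threshold and 1.04% below the lower.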
